A study of Mus musculus with 35 samples.

Results

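The mitochondrial ribosomal protein genes (symbols beginning Mrpl for the large subunit and Mrps for the small subunit, followed by a number) were followed through mouse livers that carried tumors of 3 different origins. All genes whose symbol has this form and that have a probe set annotated to a single gene symbol were taken. This gave 74 members among 18820 genes measured, 46 of the large and 28 of the small subunit by symbol. Counts by subunit below follow the symbol, also where a protein is now placed elsewhere. Where several such probe sets read 1 member, as for 12 members, the brightest one stood for it. Mrps6, Mrpl24, Mrpl43 and Mrpl53 lay only on probe sets shared with another gene and were not counted as members.

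The study profiled 35 liver tissue samples on Affymetrix Mouse Gene arrays, 1 array per sample, as log2 values made with RMA (robust multi-array average). Diethylnitrosamine (DEN), a carcinogen activated in hepatocytes, was injected at 10 mg per kg on day 15 of life, and tumors (5 arrays) and non-tumorous liver (NTL, 5 arrays) were taken at 9 months beside 5 untreated control livers matched for sex and age. Tumor and non-tumorous tissue were separated by eye at dissection and checked by histology. The tg1223 line, called LT here, expresses lymphotoxin α and β (LTα/β) from a liver-specific transgene and was followed for 12 months, giving 3 tumor and 5 NTL arrays. The MYC model joined TRE-MYC with the liver-specific LAP-tTA driver, so that doxycycline chow (200 mg/kg) kept the oncogene silent until week 8, and gave 5 tumor and 3 NTL arrays of an age that the labels do not state. The LT and MYC groups share 4 transgene-negative control arrays, described in the labels as matched for sex and age. Both transgenes are driven in liver cells, while DEN reached the whole animal. DEN tumor replicates 1 and 4, DEN tumor replicates 3 and 5, and LT tumor replicates 1 and 2 have mouse identifiers with a shared stem and may come from the same animal. Tumor and NTL arrays of a model carry different identifiers. In the MYC NTL group the mouse identifiers start with WT although the labels name the MYC model, and these 3 arrays were kept as labelled. P-values below measure the spread between arrays, part of which may lie within an animal.

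Across the series, albumin (Alb), the main plasma protein made by hepatocytes, read between 13.6 and 13.8 on every array, and all 11 hepatocyte markers stayed above the first-quartile level of the arrays in every group. The median log2 value of an array ran from 5.59 to 5.73. Xist, the RNA that coats the inactive X chromosome of females, read above 9 on 3 of 3 LT tumor, 4 of 5 LT NTL and 1 of 4 LT/MYC control arrays, on 1 of 5 DEN control arrays, and on 0 arrays of the other groups. These values go against the stated sex matching of the LT groups with the shared controls. Myc rose in MYC tumors against MYC NTL by 1.94 ± 0.61 log2 units (limma adjusted p = 0.0217), with overlapping ranges. It read 8.88 to 10.52 in MYC tumors, 6.42 to 9.48 in MYC NTL and 7.18 to 9.56 in the shared controls. MYC NTL (mean 7.72) was thus near the shared controls (mean 7.83). Whether this probe set reads the transgene is not given in the sources used here. The first quartile of an array was 4.13 to 4.24, and all 74 members had means above it in all 8 groups, so none was lost to a filter on low values.

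The mitochondrial ribosome translates the few messenger RNAs of mitochondrial DNA, which encode core subunits of the respiratory chain and of ATP synthase. Its ribosomal RNAs come from mitochondrial DNA, but every one of its proteins is made from nuclear genes on cytosolic ribosomes and is then imported. Many of these proteins have no bacterial or cytosolic counterpart. Hepatocytes are rich in mitochondria, and their nuclear mitochondrial genes are commonly discussed together with the transcription factors NRF1, GABP (an ETS family factor), YY1 and MYC.

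Promoter sequences of 300 bases (250 before to 50 after the transcription start) were found for 65 of the 74 members in RefSeq (assembly GRCm38.p6). Exact motif letters were searched on both strands. The NRF1 palindrome, GCGCA joined to its reverse complement TGCGC, occurred in 3 of 65 member promoters (4.62%) and in 1.07% of the 27025 genes with a promoter. These 3 members were Mrpl32, Mrpl39 and Mrpl9. The ETS letters CCGGAAGT occurred in 16.9% of the members and 4.31% of all genes, and the YY1 letters AAGATGGCG in 12.3% and 1.64%. The E-box CACGTG, the letters bound by MYC, occurred in 7.69% of the members and 8.09% of all genes. No searched motif overlapped another in the promoters printed here. A match describes letters in this window and was not tied to binding. The promoters below belong to members that the comparisons turn on: Mrpl32 and Mrpl37 were called lower than NTL in the tumors of all 3 models in the fit of all arrays, Mrps27 had the largest fall in LT tumors, and Mrps7 had 1 of the largest falls in DEN tumors and held none of the searched letters. Capitals mark the motif matches, an NRF1 match in Mrpl32, an ETS and a YY1 match in Mrps27, and an E-box and a YY1 match in Mrpl37. The windows are chr13:14612988-14613287 on the minus strand (Mrpl32), chr13:99344536-99344835 on the plus strand (Mrps27), chr4:107066817-107067116 on the minus strand (Mrpl37) and chr11:115603890-115604189 on the plus strand (Mrps7).
Mrpl32: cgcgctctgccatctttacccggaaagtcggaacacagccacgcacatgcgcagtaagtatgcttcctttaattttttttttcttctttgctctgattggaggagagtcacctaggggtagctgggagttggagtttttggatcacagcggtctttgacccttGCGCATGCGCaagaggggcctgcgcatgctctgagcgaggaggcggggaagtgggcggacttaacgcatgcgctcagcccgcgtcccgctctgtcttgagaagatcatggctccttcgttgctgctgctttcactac
Mrps27: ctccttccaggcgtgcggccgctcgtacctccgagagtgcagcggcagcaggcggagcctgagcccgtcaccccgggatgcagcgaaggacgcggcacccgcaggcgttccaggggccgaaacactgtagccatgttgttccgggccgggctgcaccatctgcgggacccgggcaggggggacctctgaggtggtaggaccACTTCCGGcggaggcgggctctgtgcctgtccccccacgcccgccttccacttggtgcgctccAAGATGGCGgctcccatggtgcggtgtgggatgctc
Mrpl37: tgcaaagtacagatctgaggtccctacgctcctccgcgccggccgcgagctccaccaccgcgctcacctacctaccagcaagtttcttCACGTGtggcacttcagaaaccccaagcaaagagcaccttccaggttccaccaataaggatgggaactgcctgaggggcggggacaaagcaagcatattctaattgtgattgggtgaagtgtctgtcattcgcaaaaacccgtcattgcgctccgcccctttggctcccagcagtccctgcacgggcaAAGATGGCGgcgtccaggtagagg
Mrps7: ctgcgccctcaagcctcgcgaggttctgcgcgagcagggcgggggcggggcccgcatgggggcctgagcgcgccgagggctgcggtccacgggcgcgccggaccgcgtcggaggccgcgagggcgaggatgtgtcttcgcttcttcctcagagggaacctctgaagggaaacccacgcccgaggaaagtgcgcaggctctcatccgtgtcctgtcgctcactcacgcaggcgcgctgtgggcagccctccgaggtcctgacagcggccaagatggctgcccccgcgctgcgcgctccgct
The NRF1 match of Mrpl32 began 87 bases before the start site. In Mrps27 the ETS match began 49 bases before it and the YY1 match 14 bases after it, and in Mrpl37 the E-box began 162 bases before it and the YY1 match 26 bases after it.

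The members as a set were lower in DEN tumors and in LT tumors than in the non-tumorous liver of the same model, and were not shifted in MYC tumors. The median over the 74 members was 8.13 ± 0.11 (SD, n = 5) in DEN tumors, 8.49 ± 0.06 (n = 5) in DEN NTL and 8.56 ± 0.06 (n = 5) in DEN controls. All 5 DEN tumor arrays (8.01 to 8.24) lay below all 5 NTL arrays (8.40 to 8.57) and all 5 control arrays (8.50 to 8.62). In LT tumors the median was 8.14, 8.54 and 8.40 in replicates 1, 2 and 3, against 8.56 to 8.76 in LT NTL and 8.47 to 8.66 in the shared controls. All 3 LT tumor arrays lay below all 5 LT NTL arrays, but replicate 2 lay inside the control range. MYC tumors (8.44 to 8.68, n = 5) spanned the MYC NTL arrays (8.59 to 8.61, n = 3) and overlapped the controls. In bulk liver, fewer cells of a type and less RNA per cell cannot be told apart.

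**Figure D1:**
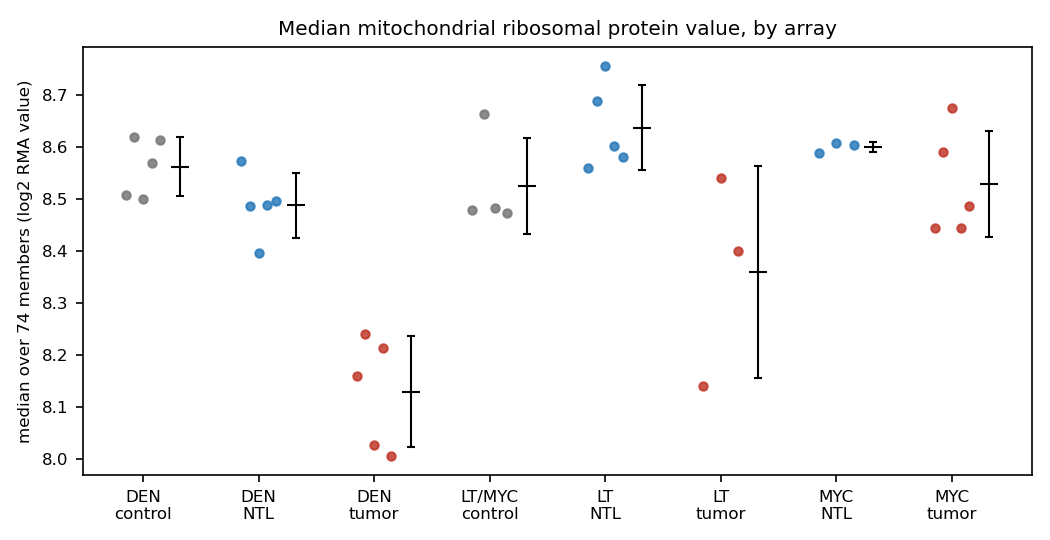
Each point is 1 array; the y axis is the median log2 RMA value over the 74 members, and the bars give the mean ± SD of each group. The 5 DEN tumor arrays sit between 8.01 and 8.24, below every DEN NTL and DEN control array, the 3 LT tumor arrays spread from 8.14 to 8.54, and the MYC tumor arrays overlap their NTL arrays.

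In DEN tumors against DEN NTL, 42 of 74 members fell and 2 rose at a limma adjusted p under 0.05, while 16.7% of all 18820 genes were called lower and 15.6% higher. The median change of the members was -0.29 log2 units, against -0.04 over all genes, and 66 of the 74 members had a change below 0. For 39 members all DEN tumor arrays lay below all NTL arrays (11.7% of all genes), and for 0 members they lay above (10.7%). The fall was shared by the subunits, with 25 of 46 large subunit members and 17 of 28 small subunit members by symbol called lower. The 17 include Mrps30 and Mrps36, whose other placement is given below. The placement of the others, Mrps18a among them, was not checked. It was of modest size: 12 members fell by at least 0.5 log2 units.

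Among small subunit members, Mrps7 (chr11:115604140-115608036), a protein of the head of the subunit, read 8.67, 8.38, 8.44, 8.62 and 8.55 in DEN tumor replicates 1 to 5 and 9.37, 9.10, 8.98, 9.26 and 9.33 in NTL. The ranges did not overlap, and its change was -0.68 ± 0.09 log2 units (SE, limma adjusted p = 7.61e-07) with a mean of 8.53 ± 0.12 (SD, n = 5) against 9.21 ± 0.16 (n = 5). Mrps5 (chr2:127587426-127603986), known for its part in decoding accuracy, read 7.74, 8.16, 7.83, 7.69 and 7.69 in tumors and 8.33 to 8.55 in NTL. All its tumor arrays were again the lower ones, with a change of -0.63 ± 0.10 (limma adjusted p = 8.12e-06), and its second probe set changed by -0.55. Mrps27 (chr13:99344767-99415562), a pentatricopeptide repeat protein, read 7.12 to 7.58 in tumors and 7.59 to 8.14 in NTL. These ranges touched without overlapping, and the change was -0.60 ± 0.12 (limma adjusted p = 0.000261). Mrps12, which lies at the decoding centre, changed by -0.19 ± 0.14 with overlapping ranges and was not called (limma adjusted p = 0.315).

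Among large subunit members, Mrpl14 (chr17:45685722-45698495), at the interface between the subunits, read 8.88, 8.81, 8.89, 8.59 and 8.80 in DEN tumors and 9.31, 9.60, 9.47, 9.55 and 9.45 in NTL. The highest tumor array was below the lowest NTL array, and the change was -0.68 ± 0.08 (limma adjusted p = 1.44e-07; 95% interval -0.84 to -0.51). Mrpl2 (chr17:46646172-46650132), close to the peptidyl transferase centre, read 7.23 to 7.71 in tumors and 7.93 to 8.15 in NTL, a change of -0.58 ± 0.09. Mrpl3, in the same region of the ribosome, changed by -0.30 ± 0.08 with overlapping ranges (limma adjusted p = 0.0034). Mrpl32 (chr13:14610301-14613037), which is cut by the mitochondrial m-AAA protease before it joins the ribosome and carries the NRF1 letters shown above, read 7.64, 7.39, 7.46, 7.56 and 7.48 in tumors and 8.02 to 8.16 in NTL. That gap corresponded to -0.60 ± 0.09 (limma adjusted p = 2.53e-06). Mrpl12 (chr11:120484637-120488754), the stalk protein that also binds the mitochondrial RNA polymerase, read 9.08 to 9.38 in tumors and 9.49 to 9.81 in NTL. It fell by 0.44 log2 units (SE 0.10, limma adjusted p = 0.000663), and both of its probe sets fell. Mrpl23, of the exit tunnel, was not called against NTL (-0.20 ± 0.09, limma adjusted p = 0.1) but was called lower against the untreated controls (-0.37 ± 0.09, limma adjusted p = 0.0031).

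The members that rose in DEN tumors were the mitochondria-specific large subunit proteins Mrpl52 and Mrpl50. Mrpl52 (chr14:54426909-54429750) read 10.30, 10.08, 10.47, 10.35 and 10.39 in tumors and 9.95 to 10.11 in NTL. Replicate 2 lay inside the NTL range, and the change was 0.30 ± 0.08 (limma adjusted p = 0.0061). Mrpl50 read 9.27, 9.63, 8.98, 9.53 and 8.85 in tumors and 8.87 to 9.00 in NTL, so 2 of the 5 tumor arrays did not exceed the NTL range (limma adjusted p = 0.0403). The count of 2 was 1 in 8 of 10 fits that each left out 1 array. Mrpl50 lost its call in a fit of the DEN tumor and NTL arrays alone (limma adjusted p = 0.13), and it was not called against controls.

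Against untreated controls the result was similar in size, with 48 members lower and 0 higher in DEN tumors (15.6% and 15% of all genes, limma). At an unadjusted p under 0.05, 58 members were lower and 1 was higher (20.4% and 18.5% of all genes). The 2 comparisons share the tumor arrays, so their calls are not independent. Lower than both references were 37 members, and the same overlap was not counted over all genes. The largest falls were those of Mrps5 (-0.74 ± 0.10, limma adjusted p = 6.42e-07) and Mrpl14 (-0.70 ± 0.08, limma adjusted p = 6.84e-08). Mrps27 was not called there (-0.30 ± 0.12, limma adjusted p = 0.0584), and its DEN control arrays read 7.38 to 7.85. DEN NTL did not depart from control for any single member (0 higher and 0 lower by limma, where 0.0691% and 0.128% of all genes were called). At an unadjusted p under 0.05, 2 members were higher and 4 lower in DEN NTL (5.01% and 4.54% of all genes). Other cell markers also moved in DEN tumors: 7 of 10 macrophage markers were lower (summed level 11.3 to 12.6 log2 units in tumors and 12.5 to 13.4 in NTL), and 3 of 5 cholangiocyte markers were higher (9.35 to 9.88 and 7.96 to 8.29). Of 9 lymphocyte markers 2 were lower, the T cell gene Cd3e by -1.50 ± 0.22, and their summed level was 8.53 to 8.80 in tumors and 9.00 to 10.0 in NTL, with 2 of the 9 below the first quartile in both groups. Of 8 endothelial markers 3 were higher, led by Cd34 (2.28 ± 0.33), and 1 was lower, and of 8 stellate and fibroblast markers 2 were higher (Acta2 1.77 ± 0.46 and Col1a1 0.84 ± 0.32) and 2 lower, with overlapping sums for both lists. The summed hepatocyte markers overlapped (16.6 to 16.8 and 16.6 to 16.7). Single hepatocyte markers were called all the same, among them Apoa1 and Ahsg as higher, so this overlap does not mean that each marker was unmoved. Of all genes, 16.7% were called lower and 15.6% higher in DEN tumors against NTL. The part of these cells in the members' changes was not tested.

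**Figure D2:**
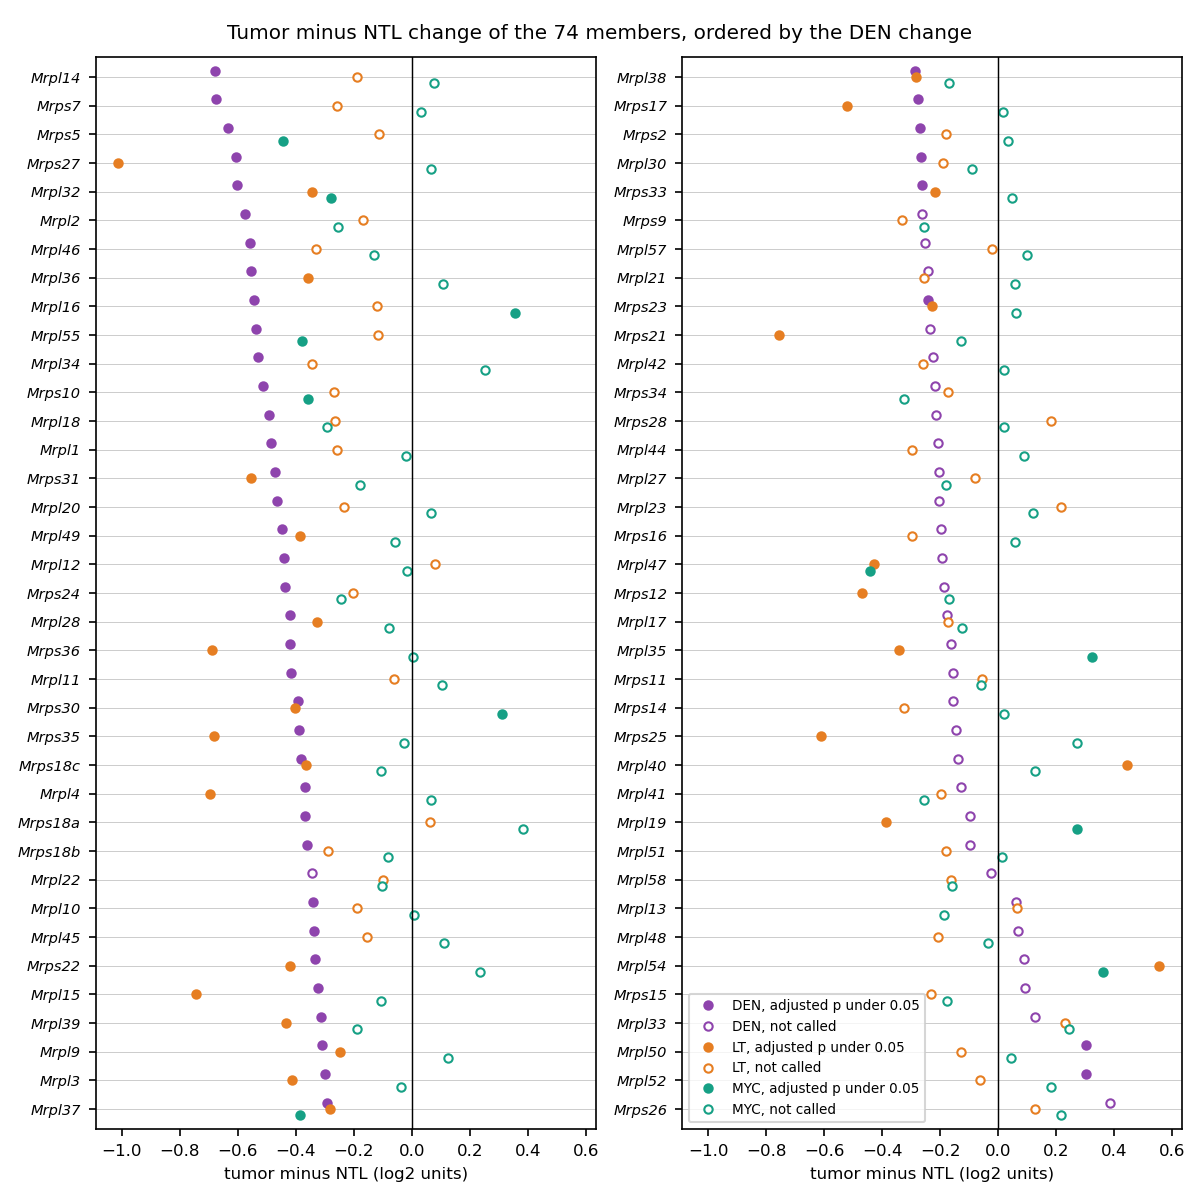
Each row is 1 member and each point its tumor minus NTL difference (x axis, log2 units) in the DEN, LT or MYC model; filled points passed a limma adjusted p under 0.05. Filled DEN points (42 lower, 2 higher) run from -0.68 to 0.30, filled LT points reach -1.01 at Mrps27, and the MYC points scatter on both sides of 0.

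In LT tumors against LT NTL, 27 members fell and 2 rose (limma; 9.73% and 10.7% of all genes were called lower and higher). The median change was -0.25 log2 units against -0.03 over all genes, and 65 of 74 members were below 0. Ranges lay apart on the lower side for 23 members (8.92% of all genes) and on the higher side for 1 (7.4%). Both subunits took part, with 14 of 46 large and 13 of 28 small subunit members by symbol lower, Mrps30 and Mrps36 among the 13. The count rested on few arrays: without LT tumor replicate 1 it was 13 and without replicate 2 it was 37. A fit of the LT tumor and NTL arrays alone, which does not borrow the spread of the other groups, called 5 lower and 0 higher. That fit called 292 lower and 323 higher of all 18820 genes. Replicate 1 had 68 of 74 members below their LT NTL mean, replicate 2 had 45 and replicate 3 had 65.

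Mrps27 read 6.88, 6.76 and 7.44 in LT tumor replicates 1, 2 and 3, and 7.92, 8.11, 8.35, 7.85 and 7.99 in LT NTL. Every tumor array was below every NTL array, with a change of -1.01 ± 0.14 (limma adjusted p = 2.08e-05), a 2.02-fold lower value, and it kept a limma adjusted p of 0.0319 in the fit of these groups alone. Mrps35 (chr6:147042728-147070906), a mitochondria-specific small subunit protein, read 7.52, 7.85 and 7.91 in tumors and 8.27 to 8.62 in NTL. Its arrays were likewise apart, at -0.68 ± 0.09 (limma adjusted p = 1.42e-05). Mrps21 (chr3:95862634-95871514) read 10.27, 10.12 and 10.44 in tumors and 10.81 to 11.35 in NTL, a change of -0.75 ± 0.16. Mrps36 (chr13:100735940-100744659), a protein that is now assigned to the 2-oxoglutarate dehydrogenase complex in spite of its symbol, read 5.93, 5.59 and 5.98 in tumors and 6.23 to 6.88 in NTL. It fell in LT tumors (-0.69 ± 0.12) and in DEN tumors (-0.42 ± 0.11), and it missed the threshold in the LT arrays fitted alone (limma adjusted p = 0.0535).

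Of the large subunit, Mrpl15 (chr1:4773198-4785750) read 8.55, 9.29 and 9.38 in LT tumors and 9.53 to 9.94 in NTL. Its change of -0.75 ± 0.13 was set against an NTL level that was itself 0.53 ± 0.11 above the shared controls (limma adjusted p = 0.0117), and against those controls its tumor value was not called. Mrpl4 (chr9:21001252-21008839), beside the exit tunnel, read 8.63, 8.50 and 9.19 in tumors, 9.31 to 9.81 in NTL and 9.32 to 9.68 in controls. Its tumor arrays were below both, by -0.70 ± 0.12 and -0.75 ± 0.13 (limma adjusted p = 0.000195 and 0.000372). In the LT groups fitted alone, Mrpl15 and Mrpl4 had limma adjusted p of 0.0687 and 0.0657 against NTL.

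Mrpl54 and Mrpl40, mitochondria-specific proteins of the large subunit, were the members that rose in LT tumors. Mrpl54 (chr10:81264722-81266926) read 9.39, 9.77 and 9.01 in tumors and 8.60 to 9.10 in NTL, a change of 0.55 ± 0.12 (limma adjusted p = 0.00164), with replicate 3 inside the NTL range. Mrpl40 (chr16:18872018-18876637) read 9.90, 10.23 and 9.48 in tumors and 9.31 to 9.55 in NTL, a change of 0.44 ± 0.10 (limma adjusted p = 0.0022), again with replicate 3 inside. Replicate 2 was the highest LT tumor array for both genes, and for Mrpl12 it read 10.26 while the others read 9.47 and 9.63. Neither rise passed in a fit of the LT tumor and NTL arrays alone (limma adjusted p = 0.102 and 0.131).

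Against the shared controls, LT tumors had 19 members lower and 3 higher (7.73% and 8.78% of all genes, limma), with a median change of -0.13. Mrps27 (mean 7.03 in tumors and 8.03 in controls, limma adjusted p = 7.34e-05) and Mrpl4 were the largest falls, and Mrpl54 (0.63 ± 0.13), Mrpl40 (0.39 ± 0.11) and Mrpl23 (0.37 ± 0.11) were the rises. The count lower was 6 without LT tumor replicate 1, 8 with replicates 1 and 2 averaged, 6 with the high Xist arrays marked in the fit, and 0 when only these 2 groups were fitted. Over all 18820 genes, 1455 were lower in the main fit, 660 with that averaging, 661 with Xist marked and 0 with these groups alone. LT NTL was slightly above the controls (median 0.10), with 5 members higher and 0 lower (1.37% and 1.04% of all genes, limma), and at an unadjusted p under 0.05 with 14 higher and 0 lower (7.83% and 7.72% of all genes). Those called were Mrpl15, Mrpl47, Mrpl19, Mrps35 and Mrpl3, and the number higher was 1, 3 and 2 without LT/MYC control replicate 1, 2 and 3, and 2 and 3 without LT NTL replicate 3 and 5. LT tumors also had 4 of 9 lymphocyte, 5 of 10 macrophage, 5 of 8 stellate and fibroblast and 3 of 8 endothelial markers called higher than NTL, and 1 macrophage and 2 endothelial markers lower. Of all genes, 10.7% were called higher and 9.73% lower in LT tumors against NTL. The summed stellate and fibroblast level ran from 12.1 to 13.8 in tumors and from 12.5 to 12.7 in NTL, and the summed hepatocyte level from 16.4 to 16.7 and 16.6 to 16.7. The part of these cells in the members' changes was not tested.

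In MYC tumors against MYC NTL the members moved in both directions, with 6 lower and 5 higher (limma; 10.3% and 11.5% of all genes). The number lower was 11 with arrays of a shared stem averaged, and the number higher was 2 with centred arrays, 2 with these groups fitted alone and 3 after quantile normalization. Their median change was 0.01 log2 units against -0.03 over all genes, 36 were below 0 and 38 above, and no member changed by 0.5 log2 units or more. Ranges lay apart on the lower side for 9 members (13.9% of all genes) and on the higher side for 6 (13%). These shares lay below those of all genes in both directions.

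Mrpl37 (chr4:107055874-107066866), a mitochondria-specific large subunit protein whose promoter with an E-box is shown above, read 9.50, 9.68, 9.75, 9.54 and 9.66 in MYC tumors, 9.96, 10.10 and 9.97 in MYC NTL and 9.80 to 9.90 in controls. It was lowest in the tumors against both references (-0.38 ± 0.07, limma adjusted p = 0.000124, and -0.22 ± 0.06, limma adjusted p = 0.0103). It fell in DEN (-0.29 ± 0.06) and LT tumors (-0.28 ± 0.07) too, and with Mrpl32 (MYC: -0.28 ± 0.10, limma adjusted p = 0.0421, ranges overlapping) it was called lower than NTL in all 3 models. In fits of the compared groups alone, Mrpl37 lost its LT call (limma adjusted p = 0.0717) and Mrpl32 its LT and MYC calls (0.107 and 0.124). Mrpl32 also lost the LT call without LT tumor replicate 1 (0.162) and with arrays of a shared stem averaged (0.0824), and the MYC call without MYC NTL replicate 2 or 3 (0.0833 and 0.228) or MYC tumor replicate 1, 2 or 5 (0.0787, 0.0525 and 0.121). For Mrps5 and Mrpl55 the MYC NTL level was itself above the controls. Mrps5 averaged 8.55 ± 0.05 in tumors, 8.99 ± 0.07 in NTL and 8.50 ± 0.09 in controls, and Mrpl55 read 7.72 to 7.94 in tumors, 8.13 to 8.28 in NTL and 7.78 ± 0.15 on average in controls. Both were called lower than NTL and neither was called against controls, while their NTL was called above controls. Mrpl47 (-0.44 ± 0.12) and Mrps10 (-0.36 ± 0.11) were called lower than NTL, but lost the call when their probe sets were averaged (limma adjusted p = 0.103 and 0.153). Neither was called in MYC tumors or MYC NTL against controls.

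Of the 5 members that rose in MYC tumors, Mrpl54 read 9.26, 9.53, 9.28, 9.11 and 9.34 in tumors, 8.95, 8.88 and 9.01 in NTL and 8.58 to 8.88 in controls. Its tumor arrays were above both references, by 0.36 ± 0.12 (limma adjusted p = 0.0345) and 0.55 ± 0.11 (limma adjusted p = 0.000647). Mrpl19 read 7.91 to 8.26 in tumors, 7.80 to 7.87 in NTL and 7.60 to 7.74 in controls, and was also called higher than both (0.27 ± 0.10 and 0.44 ± 0.09). Mrpl35 read 9.02 to 9.29 in tumors and 8.80 to 8.86 in NTL, a rise of 0.32 ± 0.08 (limma adjusted p = 0.00549), but its NTL was itself 0.39 log2 units below controls. Mrpl16 (0.35 ± 0.13) and Mrps30 (0.31 ± 0.10) overlapped NTL, and the dimmer probe set of Mrps30, a protein now placed in the large subunit, changed by -0.06. After centring of the arrays on their medians, Mrpl35 and Mrps30 kept the call and Mrpl54, Mrpl19 and Mrpl16 lost it (limma adjusted p = 0.0713, 0.0924 and 0.0781). Leaving out MYC NTL replicates 1, 2 or 3 left 2, 1 and 1 members higher, leaving out MYC tumor replicate 2 left 1 and replicate 4 left 3, and without MYC NTL replicate 3 there were 3 lower.

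Mrpl20 (chr4:155802878-155808831), a large subunit protein, set the MYC model apart from the shared controls in tumor and non-tumor tissue alike. It read 8.70, 8.57 and 8.54 in MYC NTL, 8.52, 8.92, 8.92, 8.33 and 8.65 in MYC tumors, and 7.69, 7.79, 7.38 and 7.93 in controls. Every MYC array was above every control array, by 0.91 ± 0.17 for NTL (limma adjusted p = 0.00132) and 0.97 ± 0.15 for tumors (limma adjusted p = 1.21e-05), a 1.96-fold higher value in tumors. MYC tumors and NTL did not differ beyond their spread for this gene (0.07 ± 0.16, limma adjusted p = 0.82). In all, MYC tumors had 6 members higher and 1 lower than controls (10.2% and 10.3% of all genes, limma), and MYC NTL had 5 higher and 1 lower (1.66% and 2.17%). Without MYC NTL replicate 1, 2 or 3 the number higher was 1, 1 and 2, and without LT/MYC control replicate 1, 3 or 4 it was 3, 2 and 2. MYC tumors also had 6 of 11 hepatocyte markers lower than NTL (summed level 16.4 to 16.6 in tumors and 16.7 on all NTL arrays) and 3 of 8 stellate and fibroblast markers lower (10.5 to 12.0 and 12.4 to 12.5). The summed endothelial level was 11.7 to 12.0 in tumors and 12.1 to 12.4 in NTL, with Plvap lower (-1.16 ± 0.19) and Cd34 higher (limma adjusted p = 0.00529). The macrophage genes Cd68 (0.89 ± 0.29) and Trem2 (0.85 ± 0.22) were higher, with overlapping sums, and 1 of 9 lymphocyte markers was lower. Of all genes, 10.3% were called lower and 11.5% higher in MYC tumors against NTL. The part of these cells in the members' values was not tested.

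**Figure D3:**
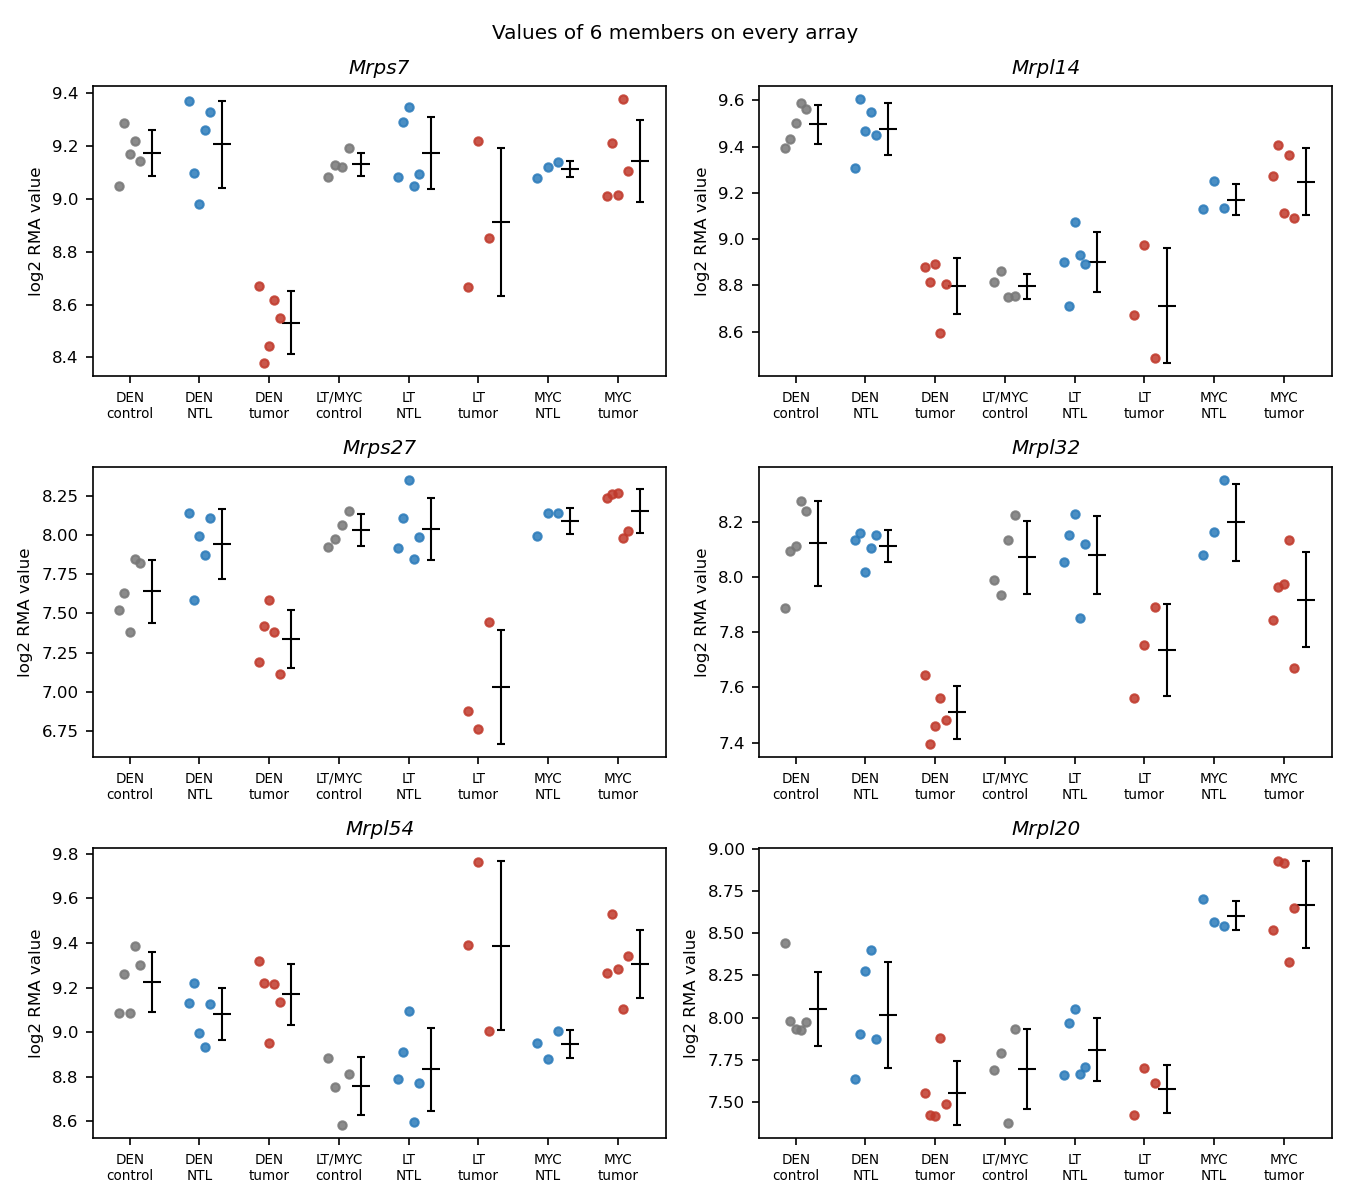
Each point is the log2 RMA value (y axis) of 1 array, by group, for Mrps7, Mrpl14, Mrps27, Mrpl32, Mrpl54 and Mrpl20, with the mean ± SD beside the points. Mrps7 and Mrpl14 separate DEN tumors from DEN NTL, Mrps27 is lowest in LT tumors (6.76 to 7.44), and Mrpl20 is highest in both MYC groups.

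The difference between models was tested directly, as the tumor minus NTL change of 1 model minus that of another. The DEN change was lower than the MYC change for 20 members and higher for 0 (limma; 7.98% and 7.12% of all genes), and at an unadjusted p under 0.05 lower for 32 and higher for 1 (14.6% and 12.6%). The LT change was lower than the MYC change for 15 members and higher for 0 (6.6% and 5.76%), and at an unadjusted p under 0.05 lower for 24 and higher for 2 (13.8% and 13.1%). Both sets share the MYC arrays. Mrpl34, Mrpl35, Mrpl36, Mrpl9, Mrps22, Mrps25, Mrps27, Mrps30 and Mrps35 were in both. The LT count dropped to 8 when LT tumor replicate 1 was left out, and to 8 in a fit of the 4 groups alone, and the count for DEN was 13 without MYC NTL replicate 1.

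Mrpl16 showed the largest DEN to MYC difference (-0.90 ± 0.17, limma adjusted p = 0.000343). It read 8.73 to 9.18 in DEN tumors, 9.35 to 9.55 in DEN NTL, 9.24 to 9.81 in MYC tumors and 9.11 to 9.34 in MYC NTL, so it was lower than NTL in 1 model and higher in the other. Mrpl34 (chr8:71464926-71465753) read 9.94 to 10.52 in DEN tumors and 10.64 to 10.92 in DEN NTL. In MYC tumors it read 10.46 to 10.88 and in MYC NTL 10.40 to 10.49, and the difference of the changes was -0.78 ± 0.17 (limma adjusted p = 0.00149). Mrps27 differed most between LT and MYC (-1.08 ± 0.20, limma adjusted p = 0.000736), followed by Mrps25 (-0.88 ± 0.14, limma adjusted p = 0.000165). Mrps25 (chr6:92169512-92184023), a mitochondria-specific small subunit protein, read 6.74, 6.19 and 6.67 in LT tumors and 7.04 to 7.23 in LT NTL, but 6.83 to 7.24 in MYC tumors and 6.68 to 6.85 in MYC NTL.

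Between DEN and LT, the DEN change was lower for 6 members and higher for 1 (7.61% and 6.3% of all genes, limma). The members' share lower was thus close to that of all genes, and their share higher was below it. At an unadjusted p under 0.05 it was lower for 13 and higher for 9 (14.3% and 13.2%). Mrpl40 (-0.58 ± 0.13), Mrpl12 (-0.52 ± 0.15), Mrps5, Mrpl14, Mrpl23 and Mrps7 had the lower change in DEN, and Mrps25 (0.47 ± 0.13) the lower change in LT. The number lower in DEN was 10 without LT tumor replicate 1, 1 without replicate 2 and 12 without LT NTL replicate 3, and the number higher was 7 without LT tumor replicate 3 and 4 without DEN tumor replicate 2. Of the members called lower, 21 were shared by DEN and LT, which is 50% of the 42 in DEN and 77.8% of the 27 in LT. Over all genes these shares were 25.4% and 43.5%. Members were called lower more often than all genes (42 and 27 of 74 in DEN and LT, against 16.7% and 9.73%). This alone raises the members' shares, and sharing beyond it was not tested. Across the 74 members the DEN and LT changes had a Pearson correlation of 0.37, against 0.45 across all genes. The DEN and MYC changes gave 0.22 against 0.43, and LT and MYC 0.18 against 0.41. These describe genes on the same arrays and are given without a test. In all, 52 members (70.3%, against 52.5% of all genes) were called in at least 1 tumor against NTL comparison and 22 in none, the latter including Mrpl58, the ribosome-bound peptidyl-tRNA hydrolase, and Mrps14, Mrps15 and Mrps16.

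Other genes of the same machinery gave the context for these changes. Over all genes, 16.7%, 9.73% and 10.3% were called lower than NTL in DEN, LT and MYC tumors. The shares called higher were 15.6%, 10.7% and 11.5%. Of 3 measured subunits whose symbols do not match, Ptcd3, a pentatricopeptide repeat protein of the small subunit, fell in DEN tumors (-0.54 ± 0.08, limma adjusted p = 1.05e-05) and Dap3 rose in MYC tumors (0.33 ± 0.11, limma adjusted p = 0.032). Of 22 genes listed for ribosome assembly and RNA modification, 12 fell and 0 rose in DEN, 9 fell and 1 rose in LT, and 5 fell and 1 rose in MYC tumors. The rRNA pseudouridine synthase family member Rpusd3 had the largest DEN fall of these (-1.12 ± 0.11), followed by the GTPase Noa1 (-0.74 ± 0.09), and Rpusd3 fell in MYC tumors as well (-0.63 ± 0.12). Of 17 genes listed for mitochondrial translation and tRNA modification, 8 fell in DEN and 7 in LT with 0 rises, while 1 fell and 3 rose in MYC. The translational activator of cytochrome oxidase, Taco1 (-1.10 ± 0.11), and the elongation factor Gfm1 (-1.09 ± 0.11) led the DEN falls, and the release factor Mtrf1 (0.47 ± 0.13) led the MYC rises. Of 15 genes that copy and transcribe mitochondrial DNA, 7 fell in DEN, 3 fell in LT, and 1 fell and 2 rose in MYC tumors. Tfam, which packages that DNA and starts its transcription, read 7.23 to 7.32 in DEN tumors and 7.55 to 7.78 in DEN NTL (-0.38 ± 0.11, limma adjusted p = 0.00667).

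The proteins that meet the products of this ribosome did not follow the members in every model. Of 34 nuclear complex I subunits, 31 fell in DEN, 17 fell and 1 rose in LT, and 19 fell and 1 rose in MYC tumors, where the members as a set did not shift. Ndufa12 (-0.64 ± 0.13) and Ndufs5 (-0.61 ± 0.13) were among those lower in MYC tumors. Of 42 subunits of complexes III to V, 35 fell in DEN, 13 fell and 1 rose in LT, and 12 fell in MYC tumors. Of 18 genes of complex II and the citrate cycle, whose products need no mitochondrial translation, 16 fell in DEN, 9 in LT, and 8 fell and 2 rose in MYC tumors. Of 72 cytosolic ribosomal protein genes, 47 rose and 2 fell in DEN tumors, where the members fell, 51 rose and 1 fell in MYC tumors, and 3 rose and 1 fell in LT tumors. Rps12, of the small cytosolic subunit, rose by 0.78 ± 0.10 in DEN and by 0.97 ± 0.11 in MYC tumors. Of 12 regulators of mitochondrial biogenesis, 2 rose and 1 fell in DEN, 2 fell in LT and 4 fell in MYC tumors. The DEN rises were close to the share of all genes called higher (15.6%), and the DEN fall was below the share lower (16.7%). Whether the counts of these lists depart from the shares of all genes was not tested. In DEN tumors the coactivator gene Pprc1 (0.65 ± 0.15) and Nrf1, which encodes the factor NRF1, rose (0.30 ± 0.10, limma adjusted p = 0.0167), and the orphan nuclear receptor gene Esrrg fell (limma adjusted p = 0.000705). In MYC tumors Ppargc1b (-1.64 ± 0.28), Esrrg (-1.12 ± 0.25), Esrra (-0.43 ± 0.10) and Yy1 (-0.30 ± 0.10) fell, and in LT tumors Esrra (-0.54 ± 0.10) and Esrrg (-0.71 ± 0.25). The coactivator gene Ppargc1a went the other way in the MYC model. It read 9.21 to 9.75 in MYC tumors and 8.81 to 9.12 in MYC NTL, without overlap. Mitosis genes rose in the tumors of all 3 models, 17, 14 and 18 of 18 in DEN, LT and MYC. In the LT tumor and NTL arrays fitted alone, 2 complex I subunits and 2 genes of the ribosome assembly list were called lower. No gene of mitochondrial DNA had a probe set with a single symbol on this list, so the ribosome's products were not analysed here.

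**Figure D4:**
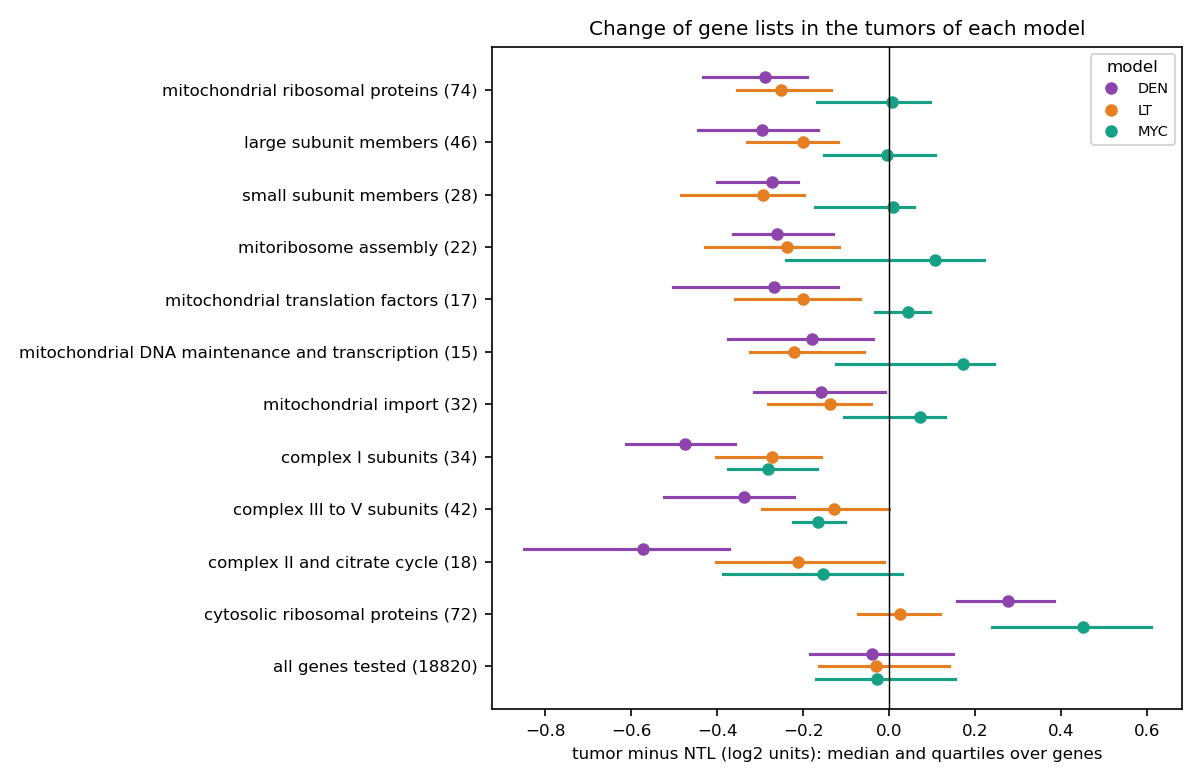
Points are the median and lines the quartiles over genes of the tumor minus NTL difference (x axis, log2 units) for each gene list in each model, with the number of genes in brackets. The members lie at -0.29 in DEN, -0.25 in LT and 0.01 in MYC, complex I subunits lie below 0 in all 3 models, and cytosolic ribosomal proteins lie above 0 in DEN and MYC.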

How the data were processed

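Liver RNA of 35 mouse samples in 8 groups was measured on Affymetrix arrays. The deposited values are log2 expression made by the authors with RMA, per the submitters' processing notes. Its version and whether 1 run covered every array: not given in the sources used here. Precision is limited by how many arrays a group has. Of 35556 probe sets, 21218 carry 1 gene symbol, 1881 several and 12457 none; the 18820 genes tested take the brightest single-symbol probe set. Tests used limma 3.58.1 under R 4.3.3 (a mean for each of the 8 groups, eBayes, Benjamini-Hochberg over 18820 genes, called at an adjusted p under 0.05) in 9 comparisons of 2 groups and 3 differences between changes. Errors are standard errors beside changes and standard deviations beside means. In data simulated for DEN tumor minus NTL, 200 of 18820 genes were changed, and each gene had the same spread in all groups. There 60% of changes of 0.5 log2 units and 28% of changes of 0.3 were recovered. For LT these were 53% and 12%, and for MYC 52% and 17%. Far more than 200 genes were called in the tumor comparisons of the data, so recovery there can differ.

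Named members are the 6 largest called rises and falls in each tumor minus NTL comparison and those called alike in all 3. In the other comparisons they are the 2 largest each way. Mrpl12, Mrpl3, Mrps12, Mrpl23 and Mrps5 were always named. From the other lists up to 3 called genes were named, in the direction of most calls, in DEN and in MYC tumors against NTL. Myc, Tfam, Polrmt, Tufm, Ppargc1a, Lta and Ltb were also set to be named. Of these, Polrmt, Tufm, Lta and Ltb are not described above. Other names were chosen after their values were seen. The members and gene lists were chosen with earlier results of these data known. Same-numbered tumor and control arrays of LT deviated together in every pair (r 0.137 to 0.233). Over all 35 pairs of the series r ran from -0.379 to 0.291, with 10 over 0.1. With the number as a block 3 members were higher and 18 lower in LT tumors against controls. Nothing in the sources used here shows that same-numbered arrays share more than the number. Alternatives were centring, averaging probe sets, dropping dim genes, fitting only the groups compared, a trended robust variance, the replicate block, averaging arrays of a shared stem, Xist as a covariate, leaving out each array and, chosen after seeing the data, quantile normalization. Promoters are from RefSeq GRCm38.p6.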

Additional observations from a re-analysis of the deposited data

Results flagged for a closer look

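Single arrays stood apart from the others of their group in 7 of 186 groups of values tested, and chance flags about 1 in 20. LT/MYC control replicate 2 was high in the median of the members (8.66, the others up to 8.48) and in Mrpl55 (8.00), and control replicate 4 was high in Mrpl50 (9.21). DEN control replicate 1 (8.44) and DEN tumor replicate 4 (7.88) were high in Mrpl20, DEN tumor replicate 2 was low in Mrpl35 (8.85), and MYC tumor replicate 4 was low in Mrpl23 (9.35).

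The tumor minus NTL change differed between models for the named members below, by limma over all genes at an adjusted p under 0.05. These members were named in part for large changes, some of them in these same differences. Over all 74 members 42 of 222 such tests passed (18.9%), against 13.8% over all genes. For DEN against LT alone, the members' share called lower was close to that of all genes, and their share higher was below it. The DEN change minus the LT change was -0.52 log2 units for Mrpl12, -0.49 for Mrpl14, -0.42 for Mrpl23, -0.58 for Mrpl40, -0.52 for Mrps5, -0.42 for Mrps7 and 0.47 for Mrps25. The DEN change minus the MYC change was -0.42 for Mrpl12, -0.76 for Mrpl14, -0.90 for Mrpl16, -0.78 for Mrpl34, -0.49 for Mrpl35, -0.41 for Mrps25, -0.67 for Mrps27, -0.70 for Mrps30, -0.36 for Mrps35 and -0.71 for Mrps7. The LT change minus the MYC change was -0.64 for Mrpl15, -0.66 for Mrpl19, -0.37 for Mrpl3, -0.60 for Mrpl34, -0.66 for Mrpl35, -0.76 for Mrpl4, -0.88 for Mrps25, -1.08 for Mrps27, -0.71 for Mrps30, -0.65 for Mrps35 and -0.69 for Mrps36.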

How the results depend on the processing

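Under the planned and added alternatives 0 of the named members' changes reversed: over the fits of named members, 2170 values stayed on their side of the threshold and 273 lost a call. The cause of each difference below was not tested. A fit of the compared groups alone has fewer arrays and also takes its spread from those groups only. With each array centred on its median, 1 member was higher in DEN and 2 in MYC tumors against NTL, and the higher share of all called genes moved from 52.3% to 40.8% in LT. With probe sets averaged, 2 were lower in MYC tumors against controls. With dim genes left out, 1 was higher in DEN and 2 were lower in MYC tumors against controls, and 2 were higher in DEN than LT. With only the groups compared in the fit, tumors against NTL had 1 higher in DEN, 0 higher and 5 lower in LT and 2 higher in MYC. In such fits LT tumors against controls had 0 and 0, where 0 of all genes were called. LT NTL had 3 higher, DEN against LT had 3 lower and LT against MYC had 8 lower. With the replicate block, 1 was higher in DEN tumors against NTL and no other count of members moved by over 1.5 times; pairs correlated at -0.38 to 0.29 (median 0.02). With arrays of a shared stem averaged, 11 were lower in MYC tumors against NTL, 1 higher and 8 lower in LT tumors against controls and 4 lower in MYC tumors against controls. With the Xist covariate, 6 were lower in LT tumors and 2 in MYC tumors against controls, 1 higher in LT NTL and 3 in MYC NTL. Under quantile normalization (chosen after seeing the data), 3 were higher in MYC tumors against NTL, 1 higher in DEN and 2 lower in MYC tumors against controls, and 2 higher and 10 lower in DEN than LT. Leaving out 1 array at a time, tumors against NTL had 1 to 3 higher and 39 to 45 lower in DEN, 1 to 3 higher and 13 to 37 lower in LT, and 1 to 4 higher and 3 to 8 lower in MYC. Tumors against controls had 0 to 1 higher and 44 to 53 lower in DEN, 1 to 3 higher and 6 to 22 lower in LT, and 5 to 7 higher and 1 to 3 lower in MYC. LT NTL had 1 to 5 higher and MYC NTL 1 to 6 higher than controls. The DEN change was higher than LT for 1 to 7 and lower for 1 to 12, lower than MYC for 13 to 22, and the LT change was lower than MYC for 8 to 19 and higher for 0 to 1. The simulation changed 200 of 18820 genes in each comparison. Changes of 0.3 log2 units were recovered in 8% (MYC NTL against controls) to 30% (DEN NTL against controls) of cases. Small changes can be missed, but these shares belong to the simulated setting and can differ in the data.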

Other observations

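Mitochondrial import genes were split between the models. Of 32 measured, 11 fell and 2 rose in DEN tumors, 6 fell and 2 rose in LT tumors, and 0 fell and 6 rose in MYC tumors against NTL (limma). Over all genes, 16.7% fell and 15.6% rose in DEN, 9.73% and 10.7% in LT, and 10.3% and 11.5% in MYC. The intermembrane chaperone Timm9 fell by 1.17 log2 units in DEN tumors (SE 0.16, limma adjusted p = 1.99e-06), and the receptor Tomm20 rose by 0.53 ± 0.11 in MYC tumors (limma adjusted p = 0.000675). The difference of the DEN and MYC changes was called lower for 9 of these 32 genes and that of the LT and MYC changes for 4. Over all genes these shares were 7.98% and 6.6%.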
